A study of Mus musculus with 4 samples.

Results

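Hypothalamic neuropeptide genes encode the peptide hormones and transmitters by which small groups of hypothalamic neurons control water balance, feeding, arousal, stress, thyroid function and reproduction. The set holds 10 genes, chosen by name: Oxt, Avp, Pomc, Hcrt, Pmch, Agrp, Crh, Trh, Gnrh1 and Cartpt. Their probe sets were found by the gene symbol in the platform annotation. It gave 9 probe sets for 8 of the genes, out of 45101 probe sets on the array. A probe set is several short DNA probes against the same transcript, summarised in 1 value. The annotation supplied here names no probe set for Agrp or Gnrh1, and these genes were not analysed here. Transcript levels were read on 4 Affymetrix mouse arrays, and the source of the total RNA on each is given as brain, hindbrain and spinal cord. Amplification with a Nugen kit gave the cDNA target of 2 arrays, and T7-based amplification gave the antisense RNA (aRNA) target of the other 2. In each preparation 1 array is numbered 0 and the other 1. The labels explain neither the numbers nor which strain, age or sex the mice had, how many mice gave RNA, or whether both preparations used the same RNA. The p-values below thus rest on the spread among these arrays alone, which may be technical in part. The 2 aRNA arrays differed in sex-linked transcripts, as given below.

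All members are made as precursors that are cut into active peptides in dense-core vesicles and released from axon terminals. Most of them are made at a high level by few cells. Magnocellular neurons of the paraventricular and supraoptic nuclei make oxytocin or vasopressin, separate neurons of the lateral hypothalamus make orexin or melanin-concentrating hormone, and neurons of the arcuate nucleus make proopiomelanocortin with CART. Corticotropin-releasing hormone and thyrotropin-releasing hormone come from parvocellular neurons, but Crh, Trh and Cartpt are also transcribed elsewhere in the brain. In RNA from mixed tissue, fewer cells of a type and less RNA per cell cannot be told apart.

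Levels are given as the deposited intensity, and differences on the log2(intensity + 16) scale, on which the change of a dim probe set is understated. The background level of an array was the 95th percentile of its 27 control probe sets for Bacillus transcripts. For the cDNA arrays it was 212 (array 0) and 247 (array 1), and for the aRNA arrays 123 and 126. Of all 45037 probe sets other than controls, 60.3% to 71.7% lay above it on an array. The median intensity ran from 338 to 386. Sex-linked transcripts set aRNA array 0 apart. The Y-linked gene Eif2s3y read 8896 there at probe set 1417210_at and at most 226 on the other arrays. At 1431642_at it read 202 there and at most 66.1 on the others. Xist, also sex-linked, went the other way. At 1436936_s_at it read 359 on aRNA array 0, 3913 and 5812 on the cDNA arrays and 44312 on aRNA array 1. At 1427262_at and 1427263_at it read 22.0 and 4.83 on aRNA array 0, and at least 458 on the others. Any contrast of the preparations, of the numbers or of the 2 aRNA arrays thus also contrasts arrays with unlike sex-linked transcripts. The part of this in the results below was not tested.

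Of the 9 neuropeptide probe sets, 4 lay above background on all 4 arrays, 2 on 3 arrays, 2 on 2 arrays and 1 on 1 array. The 4 were those of Oxt, Pmch and Cartpt and the Pomc probe set 1455858_x_at. Among all probe sets, 48.1% lay above background on all 4 arrays, so the members' share was near that of the array as a whole. By array, 7 of the 9 lay above background on each array except aRNA array 0, which had 6. Only the 2 probe sets of Cartpt and Pmch also passed the highest of the 27 controls on every array.

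**Figure D1:**
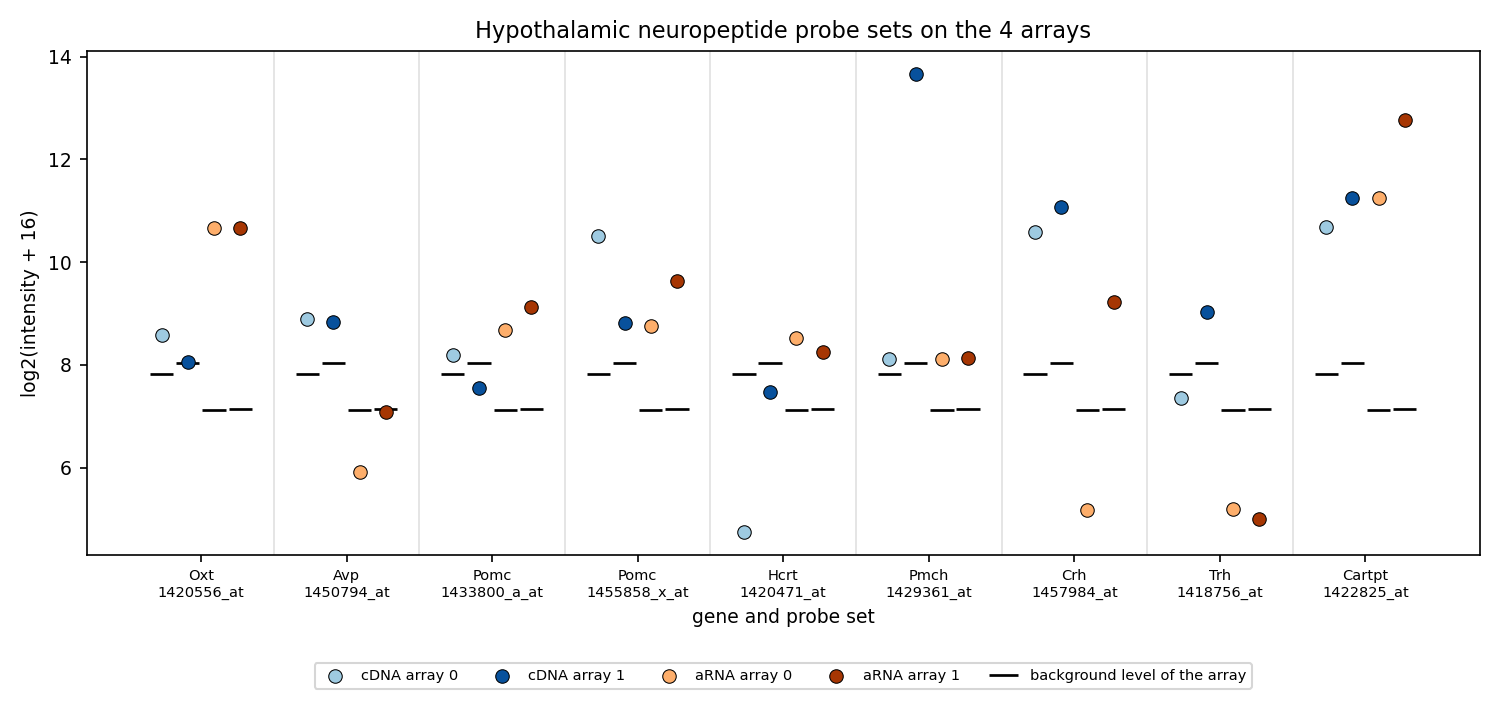
Level of each neuropeptide probe set as log2(intensity + 16) on the vertical axis, by gene and probe set on the horizontal axis; each point is 1 array, and the short black line beside it is the background level of that array. Oxt sits higher on both aRNA arrays, Crh and Avp higher on both cDNA arrays, and Pmch stands far above background on cDNA array 1 alone.

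Oxt, the gene of oxytocin, the hormone of milk ejection and labour, was lower with cDNA target than with aRNA target. Its probe set 1420556_at read 369 on cDNA array 0, 252 on cDNA array 1, 1603 on aRNA array 0 and 1599.6 on aRNA array 1. The aRNA arrays read nearly the same value, 13.1 and 12.7 times background, while the cDNA arrays lay at 1.74 and 1.02 times theirs. The difference was −2.33 (SE 0.44), 5.03-fold lower on cDNA, with a limma adjusted p of 0.00302. It remained past the threshold in every alternative in which Oxt was tested, with each array left out in turn included (differences −2.07 to −2.59). With an array left out, the fit takes the lone array of its group to vary like those of the other. The value on cDNA array 1 lies so close to background that the size of the fold has no firm upper end.

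Avp, the gene of vasopressin, the hormone of water retention, showed the opposite order. Its probe set 1450794_at read 462 on cDNA array 0 and 440.3 on cDNA array 1, which is 2.18 and 1.78 times background. The aRNA arrays read 44.2 and 119, both under background, the second only just (0.948 times). The groups did not overlap, and Avp was at least 3.33-fold higher on cDNA against the aRNA background. Of all probe sets, 2.15% were likewise above background on both cDNA arrays and under it on both aRNA arrays. Avp was too dim for the filter and was not part of the main test; without the filter its difference of 2.37 did not pass (limma adjusted p = 0.0617). Oxt and Avp are direct neighbours in the RefSeq gene table (GRCm38.p6), on opposite strands, and their products are near relatives made in neighbouring cells of the same nuclei. Here they lay on opposite sides of the contrast, Oxt on aRNA and Avp on cDNA.

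Pmch, the precursor of melanin-concentrating hormone, which promotes feeding and sleep, gave the widest gap of any member between the arrays of a preparation. Its probe set 1429361_at read 263 on cDNA array 0, 262 on aRNA array 0, 264 on aRNA array 1 and 13014 on cDNA array 1. Of the 4 values 3 were thus almost equal, at 1.24, 2.14 and 2.10 times the background of their arrays, and the other lay 52.6 times above it. cDNA array 1 exceeded cDNA array 0 by 5.54 (46.7-fold). With values under background raised to it, this was rank 1 of 45037 among the differences in either direction between the cDNA arrays, and Pmch also ranked 1 for the excess of cDNA array 1 over the highest of the other 3 arrays. Between the preparations the difference of 2.77 (SE 1.38) did not pass (limma adjusted p = 0.137). It rested on cDNA array 1: without that array it was 0.0018, with Pmch under the filter and not tested, and without cDNA array 0 it was 5.55 (limma adjusted p = 6.65e-05, in a fit that assumes that the lone cDNA array varies like the aRNA arrays).

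Hcrt, the precursor of the orexins (hypocretins), which sustain wakefulness, comes from lateral hypothalamic cells that lie among those that make Pmch, but it did not share the pattern of Pmch. Its probe set 1420471_at read 10.9 on cDNA array 0 and 161 on cDNA array 1, both under background. The aRNA arrays read 353 and 290.2, which is 2.88 and 2.31 times background. Hcrt was at least 1.37-fold higher on aRNA, a bound set by the cDNA background. On cDNA array 1, where Pmch read 13014, Hcrt thus stayed at 0.652 times background. Of all probe sets, 7.71% were above background on both aRNA arrays and under it on both cDNA arrays. Hcrt lay under the filter, and without the filter its difference of −2.28 did not pass (limma adjusted p = 0.153).

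Pomc, the precursor of the melanocortin alpha-MSH, which restrains feeding, and of ACTH and beta-endorphin, has 2 probe sets, and they disagreed. The suffix _a_at marks probes shared by transcripts of a gene, and _x_at marks probes that may also bind other transcripts. Probe set 1433800_a_at read 275 on cDNA array 0, 173 on cDNA array 1, 397 on aRNA array 0 and 541 on aRNA array 1, so both aRNA arrays lay above both cDNA arrays, and cDNA array 1 lay under background. Its difference was −1.03 (SE 0.56; limma adjusted p = 0.167), and its mean of 8.39 over the arrays barely cleared the filter. Probe set 1455858_x_at read 1449 and 437 with cDNA target and 418 and 783 with aRNA target. Here the groups overlapped and the mean difference was 0.47 (SE 0.62; limma adjusted p = 0.572), which turned to −0.38 without cDNA array 0. Neither probe set passed, and the direction for Pomc is not settled by them.

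Cartpt, the precursor of the CART peptides, which restrain feeding and are made in arcuate, lateral hypothalamic and other neurons, lay well above background on every array. Its probe set 1422825_at read 1634 on cDNA array 0, 2412 on cDNA array 1, 2433 on aRNA array 0 and 6946 on aRNA array 1, from 7.71 to 55.3 times background. aRNA array 1 was highest, while aRNA array 0 and cDNA array 1 were nearly equal. The difference of −1.04 (SE 0.48) did not pass (limma adjusted p = 0.112). It passed without aRNA array 0 (−1.80, limma adjusted p = 0.00809, with the lone aRNA array assumed to vary like the cDNA arrays) and was −0.29 without aRNA array 1 (limma adjusted p = 0.68), so it rested on aRNA array 1.

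Crh, the gene of corticotropin-releasing hormone, which starts the pituitary stress response, was higher on the cDNA arrays. Its probe set 1457984_at read 1513 on cDNA array 0 and 2136 on cDNA array 1, 7.14 and 8.64 times background. It read 20.0 on aRNA array 0, under background, and 584 on aRNA array 1, 4.65 times background. The groups did not overlap, but the aRNA arrays differed by at least 4.33-fold, with array 0 raised to its background. The difference between the preparations was 3.62 (SE 1.08; limma adjusted p = 0.0246), at least 6.29-fold with aRNA array 0 raised to its background. Without aRNA array 0, with the other aRNA array assumed to vary like the cDNA arrays, it was 1.60 (limma adjusted p = 0.047), and without aRNA array 1 it was 5.65. The call was lost without the filter (0.0571) and without an intensity trend (0.0685), and without cDNA array 1 Crh fell under the filter and was not tested.

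Trh, the gene of thyrotropin-releasing hormone, which drives the pituitary-thyroid axis, was measured by probe set 1418756_at. It read 148 on cDNA array 0, 504 on cDNA array 1, 20.6 on aRNA array 0 and 16.1 on aRNA array 1. Only cDNA array 1 lay above background, at 2.04 times. No fold is given, since cDNA array 0 also lay under its background. The probe set lay under the filter; without the filter its difference of 3.09 passed (limma adjusted p = 0.0394), though it rests on levels under background on 3 of the 4 arrays.

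Over the set, 6 of the 9 probe sets passed the filter on dim values, and of these 1 (Crh) was called higher on cDNA, 1 (Oxt) lower and 4 were not called. Among all 22519 probe sets tested, 43.2% were called, 20.2% higher and 22.9% lower on cDNA, so 1 call each way among 6 is near the background. The median difference of the 6 was −0.28, against −0.11 for all probe sets tested. Without the filter, 1 of the 9 was called higher (Trh) and 1 lower (Oxt), against 10.4% and 10.8% of all 45037 (21.2% in either direction). In 7 of the 9 the cDNA and aRNA arrays did not overlap, against 61.6% of all probe sets. With 2 arrays against 2, an exact two-sided permutation test cannot go below p = 0.333, and none was run.

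**Figure D2:**
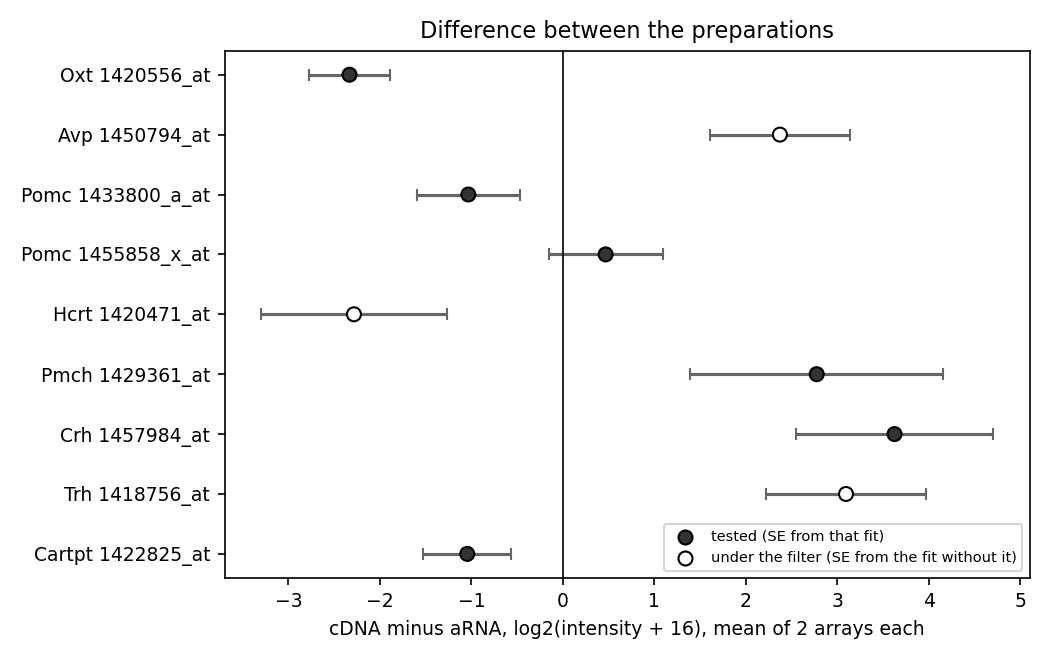
Difference of each neuropeptide probe set between the mean of the 2 cDNA arrays and that of the 2 aRNA arrays on the log2(intensity + 16) scale (horizontal axis), with bars of 1 SE from limma; filled points were tested, and open points (Avp, Hcrt, Trh) lay under the filter and carry the SE of the fit without it. The points lie on both sides of 0, from −2.33 for Oxt to 3.62 for Crh.

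The arrays numbered 1 were then set against those numbered 0, with the preparation as a second term. None of the 6 tested neuropeptide probe sets was called by limma, against 0.0622% of all probe sets tested (14 of 22519). At an unadjusted limma p under 0.05 there were 3 of the 6 (Pmch, Crh and Cartpt), against 1319 of the 22519. Pmch differed by 2.78 on average (limma adjusted p = 0.7), made up of 5.54 with cDNA target and 0.0096 with aRNA target. Crh differed by 2.28 on average (limma adjusted p = 0.693), but aRNA array 0 lay under background; with it raised to background the difference was 0.49 with cDNA target and at least 2.11 with aRNA target. The average for Pmch thus came almost wholly from the cDNA arrays. Cartpt read higher on number 1 in each preparation at levels above background, by 0.56 with cDNA target and 1.51 with aRNA target (mean 1.03, limma adjusted p = 0.753). Oxt differed by −0.53 with cDNA target and by −0.003 with aRNA target. For 5 of the 9 probe sets the sign differed between the preparations, against 49.3% of all probe sets.

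**Figure D3:**
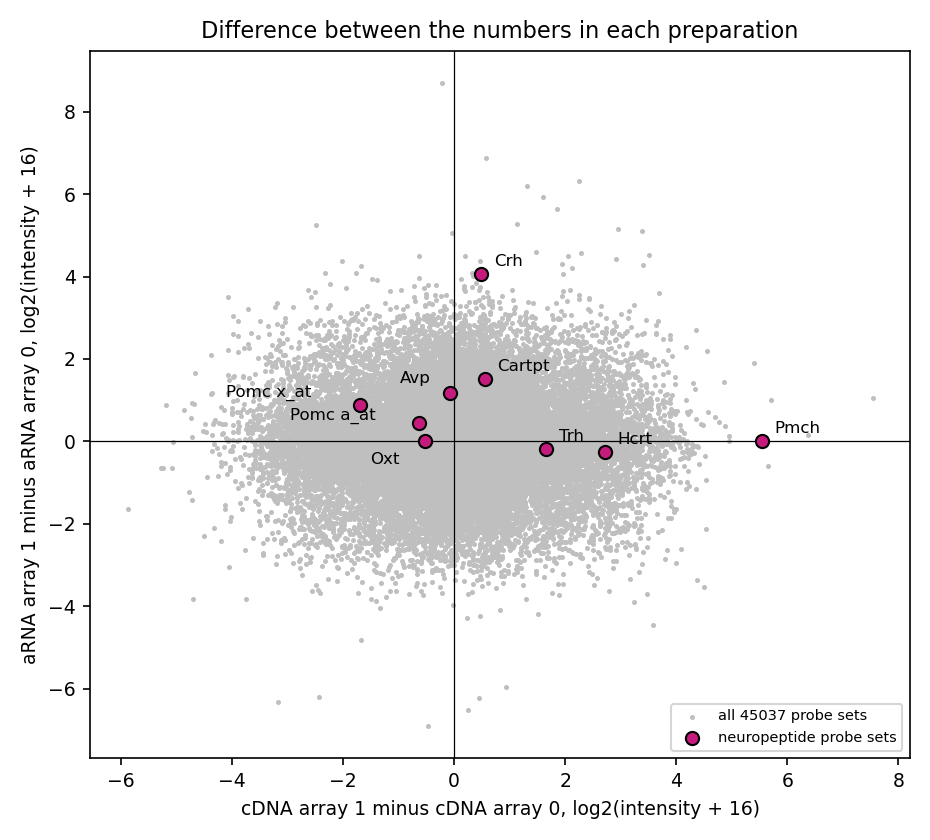
Difference between the arrays numbered 1 and 0 on the log2(intensity + 16) scale, for cDNA target on the horizontal axis and aRNA target on the vertical axis; grey points are all 45037 probe sets and large points the neuropeptide probe sets. Pmch lies at 5.54 on the cDNA axis and near 0 on the aRNA axis, and Crh at 4.06 on the aRNA axis, where aRNA array 0 lay under background; values are drawn as measured.

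Receptors of these peptides were compared next. Of 16 receptor genes, 15 had a named probe set, and at the brightest probe set of each, 6 lay above background on all 4 arrays and 1 on none; over all 18193 named genes, 64.2% lay above it on all 4 arrays. Of the 4 genes bright enough to be tested, none was called higher on cDNA, 1 was called lower and 3 were not called, with a median difference of −0.35, against 21.9% higher, 22.9% lower and −0.06 over the 11945 genes tested. The 1 called was Mchr1, the receptor of melanin-concentrating hormone. Its probe set 1454845_x_at read 1590.03 on cDNA array 0, 1355 on cDNA array 1, 3159.6 on aRNA array 0 and 5017 on aRNA array 1 (difference −1.43, SE 0.35, limma adjusted p = 0.0104). A further probe set, 1454844_at, gave −1.60. At both of these Mchr1 was lowest on cDNA array 1, where Pmch was highest. Yet from cDNA array 0 to cDNA array 1 Mchr1 changed by only −0.23 (1454845_x_at) and −0.20 (1454844_at). A link with Pmch was not tested. The other Mchr1 probe set, 1428031_at, lay under background on all 4 arrays. Trhr, a receptor of thyrotropin-releasing hormone, read 12997, 11801, 19109.6 and 6268 at 1449571_at in the same order of arrays, a difference of 0.18 (limma adjusted p = 0.769). The highest and the lowest of these values were both on aRNA arrays.

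The enzymes and vesicle proteins that cut, store and release such peptides were taken from a further list. All 14 genes with a named probe set were tested, and 13 lay above background on all 4 arrays; 2 were called higher on cDNA, 3 lower and 9 were not called (median difference −0.12). That is 35.7% called, against 44.8% of the 11945 genes tested. Carboxypeptidase E (Cpe), which trims the cut precursors, read 74996 to 113727 over the arrays (difference 0.23, limma adjusted p = 0.383). Chga and Chgb, the granins that pack dense-core vesicles, differed by 0.01 and 0.22, and neither was called. Among those called, Cadps2, a priming factor of dense-core vesicles, was higher by 3.17 (SE 0.37, limma adjusted p = 0.000304) and Cadps, its close relative, lower by −1.40 (0.00058). Scg5, the chaperone of a precursor convertase, was higher by 1.91 (0.00393), and the secretogranin gene Scg2 was lower by −1.16 (0.00826). Pcsk1, a convertase that cuts Pomc and other precursors, read 629 and 162 with cDNA target and 756 and 841 with aRNA target, under background on cDNA array 1 alone.

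Of 17 transcription factor genes of the developing and adult hypothalamus, 16 had a named probe set and 6 were tested, of which 2 were called higher on cDNA, none lower and 4 neither (median 0.22), against 21.9% higher and 22.9% lower over all genes tested. Those called were Tbx3 (1.91, limma adjusted p = 0.00264), which acts in arcuate neurons, and Isl1 (0.81, limma adjusted p = 0.00905), which is also expressed in motor neurons and the striatum. The other Tbx3 probe set tested, 1437479_x_at, gave −0.14 (limma adjusted p = 0.811), and a further Isl1 probe set, 1422720_at, had the opposite sign (−1.36, limma adjusted p = 0.00719). Sim1, which directs the paraventricular and supraoptic neurons that make Oxt, Avp, Crh and Trh, had 2 probe sets under the filter with opposite patterns. The probe set 1420736_at read 8.37 and 42.3 with cDNA target and 439 and 365 with aRNA target, while 1449967_at read 458 and 157 with cDNA target and 16.3 and 18.2 with aRNA target. Nkx2-1, which marks the ventral hypothalamus, read 388 and 485 with cDNA target and 139 and 185 with aRNA target, above background on all 4.

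Further peptide genes of hypothalamic and other neurons were compared in the same way. Of 19, 15 had a named probe set and 7 were tested: 1 was higher on cDNA, Sst (somatostatin, 3.64, limma adjusted p = 0.00112), 1 lower, Nts (neurotensin, −1.45, limma adjusted p = 0.00749), and 5 were not called (median −0.33), a share of 28.6% called against 44.8% of all genes tested. Between the numbers 1 of the 7 was called, against 10 of all 11945 genes tested. It was Gal (galanin), named after its value was seen. Gal read 1975 on cDNA array 0, 8991 on cDNA array 1, 3117 on aRNA array 0 and 10600.5 on aRNA array 1, so number 1 was higher in both preparations (1.97, limma adjusted p = 0.0476). That call was lost with a pseudocount of 64 (0.089), with median centring (0.0702), without an intensity trend (0.924) and without a term for the preparation (1.0). The gene of neuropeptide Y, Npy, which is made beside Agrp in arcuate neurons and also in many other neurons, read 829 and 3036 with cDNA target and 160.4 and 8757 with aRNA target, a difference of 3.74 that did not pass (limma adjusted p = 0.104). It passed without the filter (0.0109) and with quantile normalization (1.99e-05), and not in the other alternatives in which it was tested. Neither gene was among the members, none of which was called in this comparison.

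Markers of tissues that lie beside or send RNA with the hypothalamus were read on the same arrays. Of 12 pituitary genes, the gland that also makes Pomc, 9 had a named probe set; none was bright enough to be tested, none lay above background on all 4 arrays, and their summed intensity was 1032 on cDNA array 0, 1357 on cDNA array 1, 1017 on aRNA array 0 and 837 on aRNA array 1. No marker was at 0 intensity, but all 4 probe sets of Gh, and those of Cga and Fshb, lay under background on every array. Of the others, Tshb read 295 and 436 with cDNA target and 203 and 114 with aRNA target, above background on each array but aRNA array 1. Lhb (327 and 287) and Tbx19 lay above background on both aRNA arrays alone, Prl on cDNA array 0 alone (293), Ghrhr on cDNA array 1 alone, and Pitx1 on cDNA array 1 and aRNA array 0. The 8 pan-neuronal markers were above background on all arrays, with sums of 518957 to 612974. All 8 were tested, and 6 were not called. Eno2 was called higher on cDNA (0.77, limma adjusted p = 0.00542) and Stmn2 lower (−1.12, limma adjusted p = 0.00101). A further Stmn2 probe set, 1423281_at, had the opposite sign (2.37, limma adjusted p = 0.000312). Choroid plexus markers summed to 104876 on cDNA array 0, 178889.8 on cDNA array 1, 2229 on aRNA array 0 and 1782 on aRNA array 1, and 6, 8, 4 and 3 of the 8 lay above background on these arrays in turn. Ttr alone made up 96.9% and 91.6% of the cDNA sums. Without it the sums were 3210.5, 15071, 1960.1 and 1164 in the same order. Of the 8 genes 4 were tested, and 3 were called higher on cDNA, none lower (median difference 3.85). That is 75% called, against 44.8% of the 11945 genes tested. Those called were Ttr (8.25, limma adjusted p = 7.32e-06), Kcne2 (4.73, limma adjusted p = 0.00208) and Kcnj13 (2.97, limma adjusted p = 0.0393). Clic6 was not called at 1434165_at (0.25, limma adjusted p = 0.765), while 1454866_s_at gave 3.52 (limma adjusted p = 0.0146). With or without Ttr, the summed markers were highest on cDNA array 1, where Pmch and Trh were highest, and lower on both aRNA arrays, where Avp and Trh lay under background; their part in those results was not tested. The 7 tanycyte and ependyma markers summed to 5345 and 5189.7 with cDNA target and 4539.6 and 4134 with aRNA target, and none of the 3 tested was called.

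**Figure D4:**
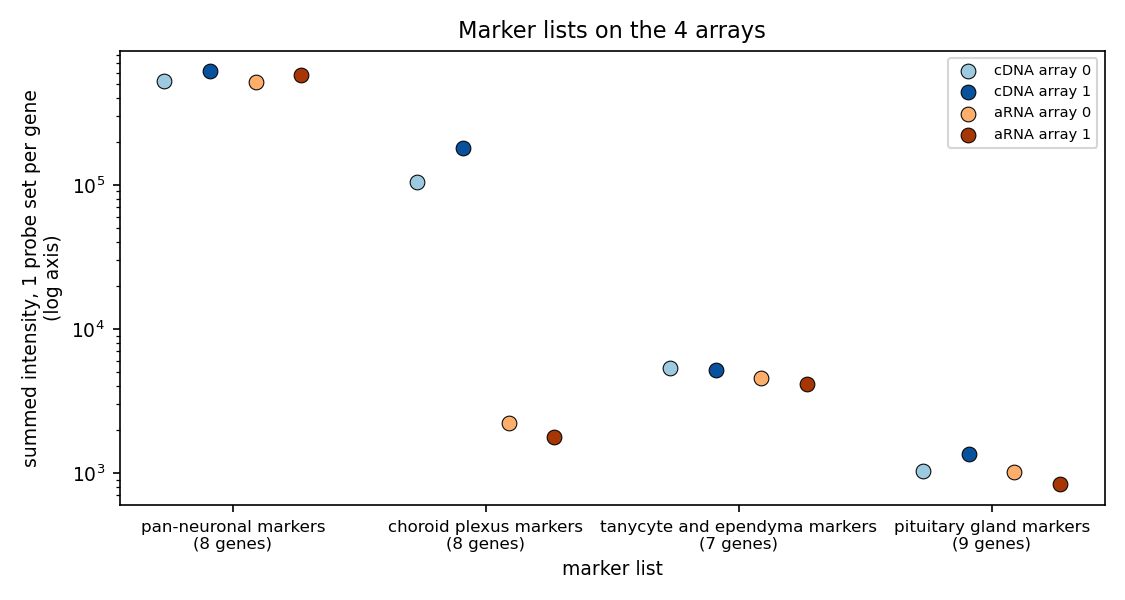
Summed intensity (vertical axis, log scale) of 4 marker lists, with 1 probe set per gene, on the 4 arrays; each point is 1 array. The pan-neuronal sums run from 518957 to 612974, the choroid plexus sums are 104876 and 178889.8 on cDNA, mostly from Ttr, and 2229 and 1782 on aRNA, and the pituitary sums stay at 837 to 1357.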

How the data were processed

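The 4 arrays were grouped by the preparation and the number in the labels. The authors deposited 1 intensity per probe set on a linear scale, with no detection call; the 2% trimmed mean was 2500.02 on each array, so the arrays had been set to an equal mean before deposit, and the values were used unchanged. The sources used here do not give the software that summarised probes. Symbols came from the platform annotation (1 symbol for 34945 probe sets, several for 932), updated through a RefSeq gene table (GRCm38.p6). Values were taken as log2(intensity + 16); 64 control probe sets were left out, and the 22519 probe sets with a mean at or above the median (8.38) were tested with limma 3.58.1 in R 4.3.3 (lmFit, eBayes with an intensity trend, Benjamini-Hochberg over all tested, threshold 0.05). The preparation fit has 2 residual degrees of freedom, the additive fit of the numbers 1. A bound of the form "at least N-fold" sets the brighter mean against the dimmer mean, with each dim array at the higher of its background and its own value. Every member probe set is named, and of each other list up to 4 called genes with the largest difference; others named were chosen after their values were seen. Each gene of a list is represented by its brightest probe set. The members and lists were chosen with earlier results of these data known. For ranks between arrays, values under background were raised to it, a choice made after the values were seen. The number of arrays limits the precision. Plots were made in Python 3.11.15 (matplotlib 3.10.9).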

Additional observations from a re-analysis of the deposited data

Results flagged for a closer look

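The difference between the numbers had opposite signs in the 2 preparations for 5 of the 9 neuropeptide probe sets, against 49.3% of all probe sets. With 1 array of each number in a preparation, the contrast between the preparations was not tested. Number 1 minus number 0, on the log2(intensity + 16) scale, was 2.72 on cDNA and −0.27 on aRNA for Hcrt, whose cDNA values lay under background. For Trh it was 1.66 and −0.19, where cDNA array 1 alone was above background. For Avp it was −0.0668 and 1.17, with both aRNA arrays under background. The Pomc probe sets gave −0.63 and 0.43 (1433800_a_at) and −1.69 and 0.88 (1455858_x_at), and the second of these was above background on all 4 arrays.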

How the results depend on the processing

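Oxt kept its direction and its call in every alternative in which it was tested. Neuropeptide probe sets called between the preparations numbered 2 of 6 tested, against 43.2% of all probe sets tested. With the 75th percentile as the filter 0 of 1 was called (57.3% of all). Without an intensity trend it was 1 of 6 (37.7% of all). Median centring moved the median of all probe sets from −0.11 to −0.25 and reversed no member. Of 108 alternative values of single members between the preparations, 99 were classed as the same, 2 lost a call (Crh) and 1 moved in size (Trh). A further 1 reversed: Pomc 1455858_x_at was −0.38 without cDNA array 0 (−0.38 to 1.31 over the arrays left out). The rest gained a call, some of them in fits that leave 1 array in a group. All probe sets called between the preparations numbered 9722 of 22519 (43.2%). With the filter at the 75th percentile they numbered 6454 of 11260 (57.3%), so the count fell while the share rose. Those called between the numbers went from 14 to 9 (pseudocount 64), 8 (median centring) and 62 (quantile normalization). Without the filter 28 were called, the same share (0.0622%) of more probe sets. The count was 0 without an intensity trend and 0 without a term for the preparation, so no replicate block. No member was called in any of these. Leaving out an array leaves no residual degree of freedom for the numbers and was not run. The labels do not say that a number pairs arrays, and the number differences of the 2 preparations correlated at 0.0412 across probe sets. With the number as a replicate block 4 of the 6 tested members were called, against 45.5% of all probe sets tested. They were Pmch and Cartpt besides Oxt and Crh. Probe sets of members above background on all 4 arrays numbered 4 of 9, against 48.1% of all probe sets. Against the highest control there were 2 (41.8% of all), and against the median of the controls plus 3 robust SDs 0 (23.2% of all). With 1 array left out there were 4 to 5 (49.5% to 53.1% of all). The causes of these shifts were not tested.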

Other observations

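Genes that stood out on cDNA array 1 as Pmch did were looked at after the values were seen, with no test. Each was ranked by the excess of that array over the highest of the other 3, with values under background raised to it. Pmch ranked 1. Slc6a2, the noradrenaline transporter gene, ranked 2 at probe set 1460129_at (5489.8, under background on the other 3 arrays), at least 24.2-fold higher, but its other 3 probe sets were not highest there. Dbh, the enzyme that makes noradrenaline, ranked 3 at 1459848_x_at (3370, under background on the others), at least 14.9-fold higher. The other Dbh probe sets were above background on all 4 arrays and also highest on cDNA array 1 (1469 against 276 to 534 at 1447592_at, and 1303 against 148 to 405 at 1450670_at). So was Th, the first enzyme of catecholamine synthesis (1390 against 272 to 466). Cbln3 and Gabra6, genes of cerebellar granule cells, ranked 7 and 12: Cbln3 read 12712 on cDNA array 1 and 1359 on cDNA array 0, and Gabra6 28075 and 3441. On aRNA arrays 0 and 1 Cbln3 read 348 and 258, and Gabra6 145 and 190. Between them and Dbh the ranking held other genes. Eno4 ranked 4, the choroid plexus markers Clic6 (1454866_s_at) and Otx2 ranked 5 and 6, and Neurod2, Trpm3 and Cnpy1 ranked 8, 10 and 11. Rank 9 had no gene symbol.

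Other genes of transmitter neurons, also chosen after their values were seen, differed among themselves. Slc6a3, the dopamine transporter gene, read 4342 on cDNA array 0 and 705 on cDNA array 1, Slc6a4, the serotonin transporter gene, 303 and 330.1, and Hdc, the enzyme that makes histamine, 969.9 and 826 at 1454713_s_at. On aRNA arrays 0 and 1 these probe sets read 100 and 226 (Slc6a3), 123 and 11.5 (Slc6a4), and 52.2 and 17.0 (Hdc). The other Hdc probe set, 1451796_s_at, lay under background on every array. Tph2, the enzyme of serotonin synthesis, was highest on aRNA array 0 (2533, against 533 to 1596 on the others). In all, 13 probe sets on cDNA array 1 exceeded the other 3 arrays more than 8-fold in this way, against 5 on cDNA array 0, 4 on aRNA array 0 and 1 on aRNA array 1.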
